A study of Homo sapiens with 12 samples.

Results

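Apolipoprotein genes and the gene of their lipid-loading enzyme made up 9 of the 28704 genes listed in either count table: APOA1, APOA2, APOB, APOC1, APOC3, APOE, APOH, APOM and MTTP. They were chosen by function and found by gene symbol. RNA-seq had been made from 12 libraries in 4 groups of 3: Huh-7 and Hep-3B, both human hepatoma lines, each transfected with a negative-control siRNA or with siARD1, an siRNA to the N-terminal acetyltransferase gene ARD1. That gene is listed in the tables as NAA10. All 12 libraries came from transfected cells, and neither siRNA sequences nor the time after transfection were used here. The labels do not say whether the replicates were separate cultures, so p-values measure only the spread between these libraries.

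The liver packs triglyceride and cholesterol ester around APOB to make very-low-density lipoprotein. MTTP encodes the transfer protein that loads lipid onto APOB in the endoplasmic reticulum. The smaller apolipoproteins ride on these particles or on high-density lipoprotein (HDL), where they activate or inhibit lipases and bind receptors. The hepatoma lines named on the labels are known for secreting lipoproteins, and the hepatocyte factor HNF4A drives many of these genes.

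Total counts ran from 17327615 to 25960237 per library. NAA10 fell in both lines, to 6.34% of the control level in Huh-7 and to 24.7% in the libraries labelled Hep-3B, with groups that did not overlap (exact two-sided permutation p = 0.1 in each, the smallest that 3 against 3 allows). Hep-3B is known to secrete albumin and alpha-fetoprotein, but ALB stood at 0.564 to 6.20 CPM (TMM-scaled counts relative to library size) in the 6 libraries labelled Hep-3B, and AFP at 0.26 to 1.97. In the 6 Huh-7 libraries they stood at 10689 to 12771 and 3182 to 5281 CPM. The label of the Hep-3B libraries is therefore in doubt, and they are named here by that label only. Among markers of other cell types, the leukocyte genes summed in Huh-7 to 83.5 to 88.1 CPM in the controls and 85.9 to 105 after siARD1, with 1 tested and not called. They summed to at most 0.522 CPM in the libraries labelled Hep-3B, with CD3E, LYZ and TYROBP not listed. In the same libraries fibroblast genes summed to 162 to 174 CPM in the controls and 137 to 172 after siARD1, with 1 of 5 tested higher. Cholangiocyte genes summed there to 14.1 to 14.995 and 14.1 to 17.8 CPM, with 2 of 3 tested higher, and in Huh-7 to 203 to 221 and 196 to 218, with 2 of 4 higher and 1 lower. Endothelial genes in the libraries labelled Hep-3B summed to 53.0 to 65.6 and 63.1 to 76.1 CPM, with 1 of 2 tested higher and 1 lower. In Huh-7 fibroblast genes summed to 36.1 to 41.9 CPM in the controls and 29.1 to 30.9 after siARD1, with 2 of 5 lower. Genes of enterocytes, a cell type that also makes APOB and MTTP, summed in the libraries labelled Hep-3B to 258 to 306 CPM in the controls and 214 to 242 after siARD1, with 3 of 4 tested members lower. In Huh-7 the enterocyte genes summed to 367 to 398 and 274 to 320 CPM, with 2 of 4 lower. Hepatocyte markers fell as well, from a sum of 30268 to 32107 CPM to 23087 to 27390 in Huh-7 (5 of 10 lower) and from 353 to 438 to 166 to 170 in the libraries labelled Hep-3B (6 of 7 lower). The latter sum is mostly FGB (mean 325 and 137 CPM), and ALB, AFP and AMBP of the 6 were present only as traces. Among all tested genes 40.1% were called in either direction in Huh-7 and 32.2% in the libraries labelled Hep-3B. The part of these markers in the results on the lipoprotein genes was not tested, and in bulk RNA fewer cells of a type and less RNA per cell cannot be told apart.

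The promoter windows of the members are shown here because MTTP and APOH fell in both lines and both hold a match to the same AT-rich motif. RefSeq (GRCh38.p14) gave windows for 6 of the 9 members, and APOA1, APOB and APOC3 had no entry. The motif (TTAAT, any 2 bases, TTAA), searched on both strands in the 250 bases before the start, stood in 0.416% of all 35116 windows of that length. Of the members it was found in one of the 2 windows of MTTP, on both strands at the same place, and in that of APOH. The sites run 5′ to 3′ on the gene's strand with the match in capitals, MTTP at chr4:99574706-99574735 (plus strand, match 109 to 99 bases before the start) and APOH at chr17:66229443-66229472 (minus strand, match 48 to 38 bases before the start).
MTTP: cacctacgtTTAATCATTAAtagtgagccc
APOH: agaaaatggTTAATGTTTAAgcgctttcat
The longer stretch of the APOH window, chr17:66229423-66229665 on the minus strand, reads as follows, again with the match in capitals.
APOH promoter: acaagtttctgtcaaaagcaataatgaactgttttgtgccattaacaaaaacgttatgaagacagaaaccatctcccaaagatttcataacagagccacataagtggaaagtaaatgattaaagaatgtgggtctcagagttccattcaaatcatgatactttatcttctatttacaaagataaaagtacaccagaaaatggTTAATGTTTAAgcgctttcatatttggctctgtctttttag
The other motifs were shorter and were searched in the same way. AGGTCA, bound by many nuclear receptors, stood in 12.1% of all windows and, among the members, in the same MTTP window. TGTTTAC, of the FOXA factors, stood in 2.98% and in the APOA2 window, and TATAAA stood in 10.7% and in the same MTTP window. The windows of APOC1, which also fell in both lines, and of APOE and APOM held none of the 4 motifs. The windows overlap untranslated exons annotated in GENCODE v29 on either strand, in 250 of 250 bases for APOM, 185 for APOC1, 117 for the MTTP window with the match, which lies in that part, and 7 for APOH. A match is a description of these letters and shows no binding. MTTP and APOH were singled out because they fell, so the share of all windows does not test a link to siARD1.

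In Huh-7 controls, CPM per kilobase of exon (RPKM) ordered the members from APOA2 to APOM with no overlap between the 3 libraries of any neighbours in the order. The length is the union of all annotated exons of a gene. The spread between libraries does not measure that choice, and the order under other lengths was not tested. APOA2, a major HDL protein, stood at 1115 ± 144 RPKM (SD, n = 3). APOA1, the main HDL protein and activator of the cholesterol-esterifying enzyme LCAT, stood at 565 ± 34.5. APOE, a ligand for hepatic uptake of remnant particles, followed at 446 ± 16.4 and APOB at 411 ± 5.86. APOC1, a small lipase inhibitor, was at 168 ± 21.2 and MTTP at 114 ± 1.17. APOH, a phospholipid-binding plasma protein also called beta-2-glycoprotein, was at 82.1 ± 4.07, and APOC3, an inhibitor of triglyceride clearance, at 69.9 ± 2.88. APOM, the HDL carrier of sphingosine-1-phosphate, was lowest at 16.6 ± 1.41. After siARD1 APOE (473 RPKM) and APOB (382) stood above APOA1 (356), whose libraries overlapped those of APOB, and MTTP (79.9) overlapped APOH (69.9). The 9 genes together held 1.0 to 1.01% of all counts in the Huh-7 controls and 0.855 to 0.902% after siARD1. APOB alone made up 59.8 to 63.3% of these member counts in the controls and 61.8 to 64.8% after siARD1.

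**Figure D1:**
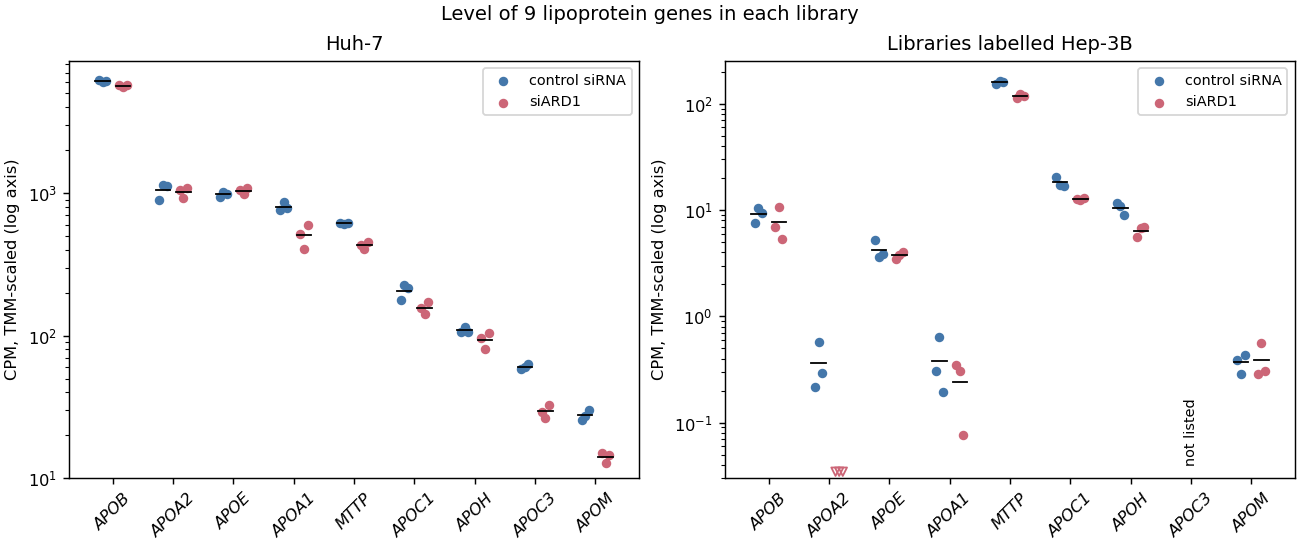
CPM of each member in each library (log axis) for Huh-7 and for the libraries labelled Hep-3B, with points for single libraries, black bars for the mean of 3 libraries, and open triangles at the lower edge for libraries at 0. In Huh-7 the siARD1 points of APOB, APOA1, MTTP, APOC1, APOH, APOC3 and APOM lie below the controls, as in 23.9% of all tested genes. In the libraries labelled Hep-3B the APOA2 points drop to 0.

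The first comparison asked which of these mRNAs changed in Huh-7 when ARD1 was lowered. After siARD1, 6 of 9 members fell and 0 rose (edgeR quasi-likelihood test, Benjamini-Hochberg adjusted p under 0.05). Among all 15919 genes tested, 18.9% were called lower and 40.1% called in either direction. Of all calls 52.9% were higher, or 39.7% with upper-quartile scaling. The median log2 fold change (siARD1 minus control) was -0.41 over the 9 members and -0.01 over all tested genes.

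The largest fall among them was in APOC3. Its controls held 58.0, 60.7 and 62.9 CPM and its siARD1 libraries 28.9, 26.5 and 32.8. All siARD1 values lay far below all controls, at 48.6% of their mean (log2 fold change -1.04, SE 0.08, edgeR adjusted p = 7.43e-10). APOM held 25.5, 27.1 and 30.1 CPM in the controls and 15.1, 12.9 and 14.5 after siARD1. It fell by 0.96 on the log2 scale (SE 0.09, edgeR adjusted p = 6.11e-08), again with no overlap, to 51.4% of the control level. APOA1 held 767, 860 and 788 CPM in the controls and 519, 408 and 595 after siARD1. The siARD1 values were spread more widely than the controls but stayed below them, at -0.67 on the log2 scale (SE 0.14, edgeR adjusted p = 0.0082).

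MTTP, the lipid-loading partner of APOB, also fell in Huh-7. Its controls lay close together at 612, 609 and 621 CPM, and its siARD1 libraries at 434, 408 and 452. The change was -0.51 on the log2 scale (SE 0.05, edgeR adjusted p = 1.50e-07), and 70.2% of the control level remained. APOC1 held 178, 227 and 216 CPM in the controls and 155, 142 and 171 after siARD1. The groups came close without overlapping, at -0.41 on the log2 scale (SE 0.09, edgeR adjusted p = 0.00588). APOC1 shares exon bases with a gene model on its own strand and is known to have a pseudogene copy, so the share of reads given to it is uncertain. APOH showed the smallest fall that passed, from 107, 116 and 106 to 95.8, 79.9 and 104 CPM (-0.23, SE 0.08, edgeR adjusted p = 0.0246). APOH no longer passed without control 2 (adjusted p = 0.0949), siARD1 library 1 (0.0529) or siARD1 library 2 (0.115).

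APOB, APOA2 and APOE did not pass in Huh-7. APOB held 6190, 6017 and 6090 CPM in the controls and 5754, 5515 and 5719 after siARD1. Its groups did not overlap, as in 50% of all tested genes, and the log2 fold change was -0.11 (95% interval -0.21 to 0.00048, edgeR adjusted p = 0.127). APOB passed with upper-quartile scaling (-0.17, adjusted p = 0.0121) and with DESeq2 (-0.11, 0.045). APOA2 held 897, 1140 and 1124 CPM in the controls and 1046, 931 and 1090 after siARD1. The groups overlapped throughout, at -0.04 (95% interval -0.22 to 0.13, edgeR adjusted p = 0.726). APOE held 940, 1012 and 980 CPM in the controls and 1043, 983 and 1083 after siARD1, a log2 fold change of 0.08 (95% interval -0.02 to 0.19, edgeR adjusted p = 0.238). Of the HDL proteins, APOA1 and APOM fell, and the log2 fold change of -0.67 measured in APOA1 lies outside the interval of APOA2 (the difference between the genes was not tested).

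**Figure D2:**
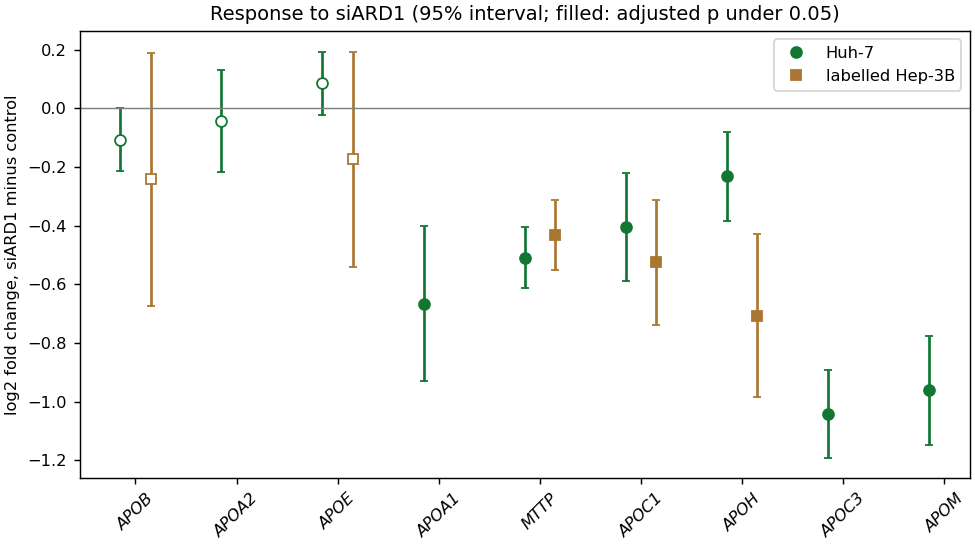
Log2 fold change of each member, siARD1 minus control, in Huh-7 (circles) and in the libraries labelled Hep-3B (squares), with approximate 95% intervals and filled symbols for adjusted p under 0.05. APOC3 (-1.04) and APOM (-0.96) lie lowest in Huh-7, and members with no square were too weak to test or not listed.

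The second comparison asked the same in the libraries labelled Hep-3B, where the members were far lower. Together they held 0.0197 to 0.0207% of all counts in the controls and 0.0144 to 0.0162% after siARD1. Most of these were MTTP, with 3568, 2853 and 3318 of the 4623, 3609 and 4147 member counts in the controls. Of the 9 members, 5 passed the filter on low counts, 3 were listed below it and APOC3 was not listed. MTTP, APOC1 and APOH fell, beside 15.3% of all 15762 tested genes called lower and 32.2% called in either direction.

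MTTP was the highest member per length there, at 29.7 ± 0.963 RPKM in the controls. Its controls held 155, 165 and 161 CPM and its siARD1 libraries 114, 125 and 118. The groups were well apart, at -0.43 on the log2 scale (SE 0.06, edgeR adjusted p = 6.96e-05) and 74.0% of the control level remaining. APOC1 held 20.6, 17.3 and 17.03 CPM in the controls and 12.7, 12.4 and 13.1 after siARD1. All siARD1 values lay below the controls and close together (-0.53, SE 0.11, edgeR adjusted p = 0.00151). APOH held 11.6, 10.96 and 9.07 CPM in the controls and 5.58, 6.77 and 6.90 after siARD1, with 60.8% remaining (-0.71, SE 0.14, edgeR adjusted p = 0.00124). Its groups did not overlap either, as in 45% of all genes tested there.

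APOB and APOE, among the most abundant members in Huh-7, were scarce in the libraries labelled Hep-3B and did not pass. APOB held 173, 180 and 193 counts in the controls and 121, 245 and 140 after siARD1, or 7.52, 10.4 and 9.37 against 6.96, 10.6 and 5.40 CPM. The siARD1 libraries reached both above and below the controls, at -0.24 (95% interval -0.67 to 0.19, edgeR adjusted p = 0.437). Without siARD1 library 2, APOB passed as lower (-0.57, adjusted p = 0.0244). APOE held 121, 62 and 79 counts in the controls and 60, 88 and 104 after siARD1. In CPM these were 5.26, 3.59 and 3.83 against 3.45, 3.82 and 4.01, which overlapped (-0.17, 95% interval -0.54 to 0.19, edgeR adjusted p = 0.513).

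The weak members are given as raw counts with no test of siARD1 in these libraries. APOA1 had 7, 11 and 4 counts in the controls and 6, 7 and 2 after siARD1, which overlapped. APOM had 9, 5 and 9 counts in the controls and 5, 13 and 8 after siARD1, or 23 against 26 in all. APOA2 had 5, 10 and 6 counts in the controls and 0 in each siARD1 library. With the siARD1 group set to a floor of 3 counts, the share of APOA2 in all counts was 7.53-fold lower after siARD1. The counting error of the 21 control counts is left out, so this is not a strict lower bound.

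Most of the genes with high levels in Huh-7 and only traces in these libraries also had lower values after siARD1. Besides the members, 24 genes stood at 100 CPM or more in Huh-7 controls and at least 1000-fold lower in the mean of the 6 libraries labelled Hep-3B, ALB and AFP among them. Of these, 20 had a lower mean share of their Huh-7 level after siARD1 than in the controls and 4 a higher one (SHANK2, COL2A1, ATP2B2 and HP), with no test. Their median share of the Huh-7 level was 0.0336 to 0.0491% in the 3 controls and 0.00384 to 0.0086% in the 3 siARD1 libraries. APOA2 stood at 0.0385% of its Huh-7 control level in the controls, near that median, and at 0 after siARD1. APOA1 stood at 0.0527 and 0.0336%. APOB was at 0.167 and 0.141%, and the 24-gene share came to 24.9% of its control level. For MTTP, APOC1 and APOH that share came to 0.142, 0.419 and 0.385% of the control level. With it subtracted, their log2 ratios of mean CPM were -0.43, -0.52 and -0.71. These genes stood at 29.3, 9.91 and 10.8% of their Huh-7 control level in the controls, so the subtraction could hardly move them and tests nothing. One median was used for every gene, while the 24 genes ranged from 0.0231% (HP) to 0.0916% (GPC3) in the controls. The source of the share was not tested. For APOB the subtraction turned the log2 ratio of means from -0.25 to 0.09, and for APOE it moved it from -0.17 to -0.06. For APOA1, where the share came to 78.9% of a control level of 22 counts, it turned from -0.65 to 1.27. None of these ratios was tested.

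**Figure D3:**
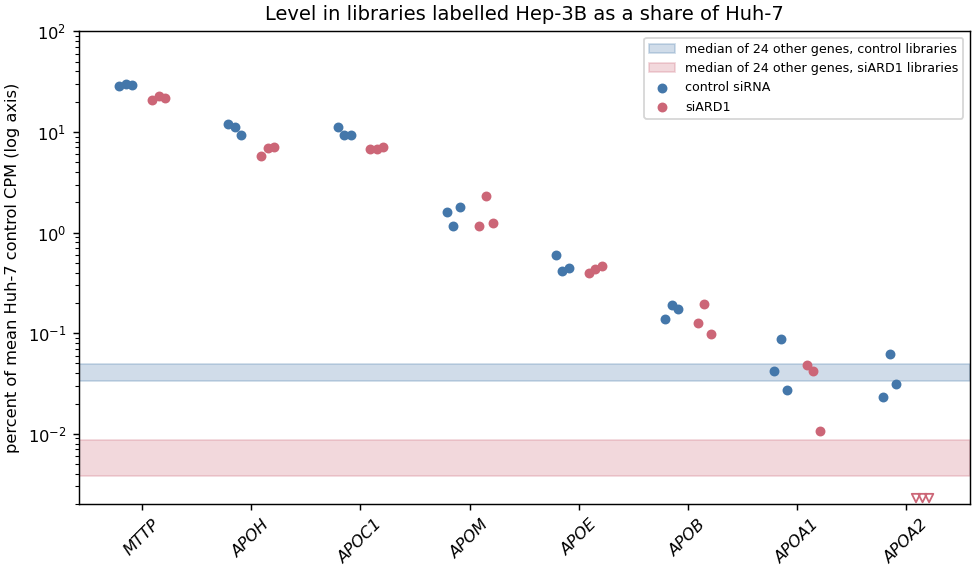
Level of each member in single libraries labelled Hep-3B as a percentage of its mean Huh-7 control CPM (log axis), with shaded bands for the range over libraries of the median share of 24 other genes that are abundant in Huh-7. MTTP, APOH and APOC1 lie far above both bands. The control points of APOA1 and APOA2, which meet the rule that chose the 24 genes, lie around the upper band (open triangles are libraries at 0).

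Between the lines, all 8 members listed in both tables were higher in Huh-7 controls than in the controls labelled Hep-3B, beside 40.7% of all 17122 genes tested called higher, 40% called lower and 80.7% called in either direction. The gap was smallest for MTTP, 3.41-fold (log2 difference 1.77, SE 0.06, edgeR adjusted p = 1.46e-21). It was 9.25-fold for APOH, 10.1-fold for APOC1, 206-fold for APOE and 598-fold for APOB. For APOA1, APOA2 and APOM the ratios rest on 22, 21 and 23 counts over the controls labelled Hep-3B and are not given as folds. These genes passed the low-count filter only through Huh-7, where they are high, so their calls add little. The order of the members per length differed as well. In the controls labelled Hep-3B it ran MTTP, APOC1, APOH, APOE and APOB without overlap between these neighbours. APOB overlapped the next gene, APOA2, and the weaker APOA2, APOA1 and APOM overlapped in turn. Line and any difference in preparation between the tables cannot be told apart.

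The response to siARD1 was then tested for a difference between the lines. Of the 8 members, 2 passed (APOH and APOA2), beside 31.4% of all genes tested. APOA1, APOA2 and APOM were below the low-count filter in the libraries labelled Hep-3B. They entered this fit only through Huh-7, so their values here say little about a difference. For APOH the fall was larger in the libraries labelled Hep-3B (response in Huh-7 minus that there 0.45 on the log2 scale, SE 0.15, edgeR adjusted p = 0.0219). That call was lost without control 1 labelled Hep-3B (adjusted p = 0.0597), siARD1 library 1 of that label (0.0748), Huh-7 control 3 (0.0504) or Huh-7 siARD1 library 3 (0.0583). The APOA2 call (edgeR adjusted p = 0.0057) rests on the 21 trace counts described above. MTTP differed by -0.09 (SE 0.08, edgeR adjusted p = 0.413) and APOC1 by 0.10 (SE 0.14, 0.614). APOA1 (-0.02, adjusted p = 0.997), APOB (0.12, 0.764) and APOE (0.25, 0.221) did not pass either, but APOB passed without siARD1 library 2 labelled Hep-3B (0.45, adjusted p = 0.0168). For APOM the difference was -1.03 (SE 0.42, adjusted p = 0.0629), with 5 to 13 counts in the libraries labelled Hep-3B.

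Several members lie in gene clusters. APOA1 and APOC3 are neighbours on chromosome 11, transcribed from opposite strands with 2678 bases between them (GRCh38 116835751 to 116837950 and 116829706 to 116833072). Both fell in Huh-7, as did APOA5, an activator of triglyceride lipolysis in the same cluster, from 6.80 to 3.01 CPM (-1.17, SE 0.17, edgeR adjusted p = 7.94e-06). APOA4, between APOC3 and APOA5, held 16, 21 and 20 counts in Huh-7 controls and 19, 5 and 27 after siARD1 and did not pass (-0.04, adjusted p = 0.944). In the libraries labelled Hep-3B APOA4 had 20, 19 and 17 counts in the controls and 1, 5 and 2 after siARD1. That fall passed (-2.88, SE 0.52, edgeR adjusted p = 0.000507), and the difference between the lines did too (2.82, SE 0.74, adjusted p = 0.00404). Unlike APOA1 and APOA2, APOA4 stood as high there as in Huh-7 (0.932 against 0.911 CPM in the controls, scaled within each table). On chromosome 19, APOE (44905754 to 44909393) and APOC1 (44914247 to 44919349) are 4853 bases apart on the same strand. In Huh-7 APOC1 fell and APOE had a log2 fold change of 0.08.

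The remaining members lie on other chromosomes in the GENCODE v29 annotation: APOA2 on chromosome 1 (161222292 to 161223631), APOB on chromosome 2 (21001429 to 21044073), MTTP on chromosome 4 (99563761 to 99623999), APOM on chromosome 6 (31652416 to 31658210) and APOH on chromosome 17 (66212033 to 66256525). Exons of APOA1, APOB, APOM and MTTP overlap genes on the other strand in part, and reads of the 2 strands may not have been told apart, since no strand setting is known.

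Genes around the members were described by lists. Among all tested genes in Huh-7, 18.9% were called lower and 21.2% higher (40.1% in all). In the libraries labelled Hep-3B the shares were 15.3% lower and 16.8% higher (32.2% in all). No list was tested against these shares. Of 13 other apolipoproteins and HDL-bound proteins, 3 of 8 tested fell in Huh-7 and 0 rose (median -0.20). These were APOA5, CLU, the chaperone-like apolipoprotein J, from 1262 to 1007 CPM (-0.33, edgeR adjusted p = 5.48e-05), and the acute-phase SAA2 (-0.82, 0.022). Among libraries with the Hep-3B label APOA4 fell, 1 of 3 tested, and CLU did not pass (0.08, adjusted p = 0.348). The difference of CLU between the lines passed (-0.42, SE 0.08, adjusted p = 0.00028).

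Of 18 genes of lipoprotein assembly and export, 6 of 17 tested fell and 2 rose in Huh-7 (median -0.08). DGAT1, which makes triglyceride, fell from 105 to 68.6 CPM (-0.61, edgeR adjusted p = 1.34e-07). TM6SF2, a factor in lipid loading of particles, fell from 8.29 to 4.57 CPM (-0.86, 6.95e-05), and TMEM41B, a lipid scramblase, by 0.34 (0.00153). ACAT2, an acetoacetyl-CoA thiolase, rose (0.28, 0.00117). P4HB, the smaller subunit of the transfer protein beside MTTP, fell by 0.21 (edgeR adjusted p = 0.00477). In the libraries labelled Hep-3B 2 of 14 fell and 1 rose (median 0.02). DGAT2, the other triglyceride-making enzyme, fell by 0.43 (edgeR adjusted p = 0.000507) and ACAT2 by 0.51 (0.0026), while the export receptor gene MIA2 rose (0.31, 0.00109). P4HB did not pass there (0.06, adjusted p = 0.418). The lines differed in the response of DGAT1 (-0.62, adjusted p = 4.93e-05), DGAT2 (0.54, 0.000226), ACAT2 (0.78, 1.56e-05) and P4HB (-0.28, 0.00684). MTTP thus fell in both lines, and P4HB, its partner, passed in Huh-7 alone.

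Of 15 lipoprotein receptors and their regulators, 6 fell and 2 rose in Huh-7 (median 0.02), and 4 fell and 3 rose in the libraries labelled Hep-3B (median -0.07). MYLIP, a ubiquitin ligase of lipoprotein receptors, fell in Huh-7 from 15.2 to 6.86 CPM (-1.15, SE 0.11, edgeR adjusted p = 4.79e-08), as did the sorting receptor SORL1 (-0.50, 2.72e-05), while LRP8 rose (0.36, 0.00076). In the libraries labelled Hep-3B the remnant receptor LRP1 fell by 0.44 (edgeR adjusted p = 3.17e-05), while SORT1, which binds APOB in the Golgi, rose (0.40, 0.00142). The lines differed in the response of MYLIP (-1.10, adjusted p = 3.63e-07), SORL1 (-0.92, 1.97e-06) and SORT1 (-0.67, 1.10e-05).

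Of 14 lipases and remodelling factors, 2 of 10 tested fell and 1 rose in Huh-7 (median -0.02), and 3 of 8 fell and 1 rose in the libraries labelled Hep-3B (median -0.11). The sterol exporter gene ABCG1 fell in Huh-7 from 2.33 to 0.415 CPM (-2.45, SE 0.35, edgeR adjusted p = 7.44e-06). LIPC, hepatic lipase, fell there by 0.16 (0.0367) and in the libraries labelled Hep-3B by 0.50 (0.00571). FURIN, a protease that cuts several lipase regulators, rose in both, by 0.42 (edgeR adjusted p = 1.15e-06) and by 0.45 (0.000307). ABCA1, which loads lipid onto APOA1, did not pass in Huh-7 (-0.07, adjusted p = 0.351) and fell in the libraries labelled Hep-3B (-0.36, 0.00096), beside the lipase inhibitor gene ANGPTL4 (-0.39, 0.00367).

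Of 21 transcription factors known to act on apolipoprotein genes, 5 fell and 4 rose in Huh-7 (median -0.00137), and 4 of 18 tested fell and 1 rose in the libraries labelled Hep-3B (median -0.07). Those counts lie near the shares of all tested genes called in either direction. HNF4A did not pass in either, at 0.03 in Huh-7 (edgeR adjusted p = 0.677) and 0.04 in the other (0.751). The LXR genes, oxysterol receptors that induce APOE and APOC1 in other cells, passed in the libraries labelled Hep-3B alone. NR1H3 fell from 30.4 to 15.1 CPM in the libraries labelled Hep-3B (-0.998, SE 0.11, edgeR adjusted p = 5.87e-06) and NR1H2 by 0.43 (0.000293), while in Huh-7 they stood at -0.02 (0.82) and 0.15 (0.114). The lines differed in both, NR1H3 by 0.96 (edgeR adjusted p = 1.79e-06) and NR1H2 by 0.55 (0.000105). FOXO1, an insulin-restrained activator of MTTP and APOC3, rose in the libraries labelled Hep-3B (0.55, 0.0019). In Huh-7 PPARA, a fatty acid receptor that acts on APOA1 and APOC3, fell from 95.1 to 59.2 CPM (-0.68, SE 0.06, edgeR adjusted p = 3.09e-08). NR2F1 fell there by 0.52 (3.82e-07), while CEBPA (0.31, 6.15e-05) and the corepressor NR0B2 (0.65, 9.17e-05) rose.

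**Figure D4:**
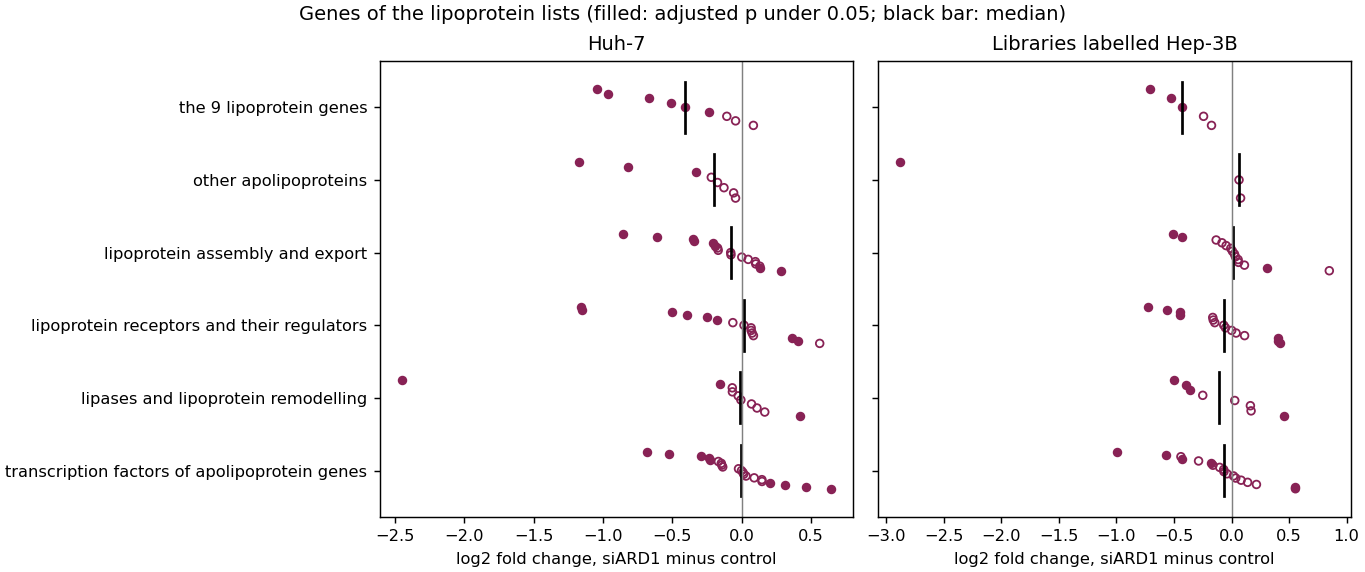
Log2 fold change, siARD1 minus control, of tested genes in each list for Huh-7 and for the libraries labelled Hep-3B, with filled points for adjusted p under 0.05 and a black bar for the list median. The 9 members have a median of -0.41 in Huh-7, and of the other lists plotted there none has a median below -0.20.

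The genes most like each changed member were found from log2 CPM centred on each gene's mean over the 6 libraries of a line, by the smallest root-mean-square difference among 10649 protein-coding genes in Huh-7 and 10471 in the libraries labelled Hep-3B. In Huh-7 MTTP was nearest to ARHGAP19 (0.0212) and ITM2B (0.023), APOC3 to HILPDA (0.0589) and P4HA1 (0.0604), and APOM to MXD3 (0.0641) and PLPPR1 (0.073). APOA1 was nearest to MAT1A (0.0466) and ACSL5 (0.0468), APOC1 to PDX1 (0.0434) and COX6C (0.0453), and APOH to NQO2 (0.0184) and ELFN1 (0.0344). In the libraries labelled Hep-3B MTTP was nearest to PC (0.0232) and SLC35A4 (0.0239), APOC1 to NSDHL (0.0279) and MAGED1 (0.0294), and APOH to MMACHC (0.0509) and CDK5RAP3 (0.0674). No member was among the nearest genes of another, and the values come from 6 libraries that share the contrast.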

How the data were processed

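The 12 libraries were directional, rRNA-depleted total RNA-seq, per the labels' protocols. The authors deposited a table of whole-number read counts per gene for each cell line. The submitters' processing notes name cutadapt 4.6, STAR 2.7.11b and GRCh38, while for the counting tool, annotation and strand setting nothing was given in the sources. No column of sample values was left unmapped.

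Each line was fitted alone with edgeR 4.0.16 (R 4.3.3): filterByExpr (minimum count 10, minimum total 15), TMM scaling and the robust quasi-likelihood test, with Benjamini-Hochberg adjustment over all tested genes at 0.05. The difference between lines was fitted over all 12 libraries on the 22730 genes in both tables. SE is the log2 fold change divided by the square root of F, and 95% intervals are 1.96 SE. RPKM used the union exon length of GENCODE v29. Replicate libraries differed by more than counting noise. Alternatives were RLE and upper-quartile scaling, no filter, DESeq2 1.42.0, limma-voom (limma 3.58.1), a single fit of all libraries, a replicate block and each library left out. Subtracting the 24-gene share was added after seeing the data.

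The members and lists were chosen with earlier results of these data known. Besides the members and NAA10, the named genes are up to 4 per list and line with the smallest p among those past the threshold, plus HNF4A, P4HB and ABCA1, each with its value in the other line where given. Some genes that this rule names are not reported here. APOA4 and the chromosome neighbours were added after their values were seen. For likeness, members past the threshold with a mean of at least 5 CPM were matched to the 2 nearest genes of at least 5 CPM. Depth of at least 17327615 counts limits what can be seen of the weak members, and the floor of 3 counts covers counting error only.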

Additional observations from a re-analysis of the deposited data

Results flagged for a closer look

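The response of APOH to siARD1 differed between the lines: the response in Huh-7 minus that in the libraries labelled Hep-3B was 0.45 on the log2 scale (SE 0.15, edgeR adjusted p = 0.0219). APOH was lower in all 3 siARD1 libraries than in all 3 controls in each line, at 85.2% of the control level in Huh-7 and 60.8% in the libraries labelled Hep-3B. The same held for 23.9% of all tested genes in Huh-7 and 22.3% in the libraries labelled Hep-3B. The fall of APOH within Huh-7 and the difference between the lines each lost their call when some single libraries were left out, as given above. The test also called APOA2 (edgeR adjusted p = 0.0057), which entered the fit only through Huh-7. That call rests on 21 counts in the controls labelled Hep-3B against 0 after siARD1, beside a log2 fold change of -0.04 in Huh-7.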

How the results depend on the processing

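The number of members called was 6 in Huh-7, beside 40.1% of all genes tested. It was 5 to 6 with any library left out and 5 to 7 under the other settings. The 5 under the other settings came from the single fit of all 12 libraries on the genes in both tables. APOC3 was not tested in that fit, and the other 5 calls held. In the libraries labelled Hep-3B the number called was 3, beside 32.2% of all genes tested, and 3 to 4 under both kinds of setting. The 4 without siARD1 library 2 include APOB. With no filter, and in the single fit of all 12 libraries, APOB and APOE did not pass. The 4 called there include a member below the low-count filter of these libraries, so that call rests on few counts. All 8 members differed between the control groups under every setting run, though APOA1, APOA2 and APOM entered the filtered fits only through Huh-7. Members differing in response between the lines numbered 2, with 1 to 3 when a library was left out. The count was 1 without Hep-3B control 1, Hep-3B siARD1 library 1, Huh-7 control 3 or Huh-7 siARD1 library 3. All genes called numbered 6388 in Huh-7 (5249 to 6137 with a library left out) and 5070 in the libraries labelled Hep-3B (3695 to 4922).

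Directions turned only for members that had not passed. The APOA1 difference between lines (-0.02) became 0.0156 with DESeq2, 0.0029 with RLE scaling, and 0.13, 0.28, 0.27, 0.26, 0.03 and 0.12 without single libraries (range -0.52 to 0.28). APOA2 in Huh-7 became 0.0179, 0.0060 and 0.0211 without control 2, control 3 or siARD1 library 2 (range -0.15 to 0.0211). APOB between lines ran from -0.11 (without Hep-3B siARD1 library 3) to 0.45, APOC1 between lines from -0.0016 (without Huh-7 control 1) to 0.18, and APOE in the libraries labelled Hep-3B from -0.27 to 0.0257 (without control 1). The cause was not tested.

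Deviations of same-numbered libraries correlated weakly. The correlations were 0.0348, 0.0649 and 0.064 in the libraries labelled Hep-3B, where each library correlated best with its own number. In Huh-7 they were 0.052, -0.0639 and 0.00693, and only number 3 correlated best with its own. The main fits used no pairing. With the replicate block 6 and 3 members were called in Huh-7 and in the libraries labelled Hep-3B, and 2 differed between the lines. Of all genes, 6328 and 5597 were called with the block, against 6388 and 5070 without it. Low counts limit APOA1, APOA2 and APOM in the libraries labelled Hep-3B.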
